A study of Rattus norvegicus with 6 samples.

Results

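Genes of cholesterol synthesis, intracellular cholesterol handling and efflux were followed in the rat aorta during the first day of culture. The set was a fixed list of 28 genes, and a gene was taken as measured where a row of the array carried its symbol and no other. Of these, 24 were measured among 14324 genes in all, and Hmgcs1, Mvk, Fdps and Srebf1 were not analysed here. The measured genes comprised 17 of 20 SREBP2-type genes (the sterol synthesis enzymes with Insig1 and Stard4), 4 of 5 LXR-type genes (Abca1, Abcg1 and the receptors Nr1h2 and Nr1h3) and 3 genes of the SREBP machinery (Insig2, Srebf2 and Scap). The day 1 group held aortic rings cultured for 1 day inside collagen gels, in EBM medium without serum. The day 0 group held freshly cut aortic rings. Both came from male Fisher 344 rats aged 1 to 2 months, an inbred strain, with 3 biological replicates per group. Each replicate pooled 4 to 6 rings or ring cultures, and the labels do not say how many animals gave a pool. A ring holds every cell type of the vessel wall.

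Cells make cholesterol from acetyl units through the mevalonate pathway, which leads over squalene and lanosterol to cholesterol. When sterol in the endoplasmic reticulum is low, the escort protein Scap carries the transcription factor SREBP2 to the Golgi, where proteases release it to switch on the synthesis genes. The Insig proteins hold Scap back when sterol is ample. When sterol derivatives accumulate, the nuclear receptors LXR alpha and LXR beta switch on exporters such as Abca1 and Abcg1, which pass cholesterol to lipoprotein particles. In the vessel wall this balance is known above all from lipid-laden macrophages and smooth muscle cells of atherosclerosis.

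Expression was read on whole-transcript arrays, and each value is a log2 level, so that a change of 1 is a doubling. The 6 arrays had medians between 5.87 and 5.95. Across genes, arrays of the same group correlated at 0.996 to 0.997 and arrays of different groups at 0.959 to 0.963, and no array stood apart. The number of arrays limits the precision. Changes are day 1 minus day 0, with the standard error from limma after ±, and a gene is said to rise or fall where limma's Benjamini-Hochberg adjusted p over all 14324 genes was under 0.05.

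After 1 day in culture 19 of the 24 measured genes had risen by limma and 0 had fallen. At an unadjusted p under 0.05, 1 gene was lower, Insig2 (limma, unadjusted p = 0.0488; adjusted p = 0.0905). Of all genes tested, 27.6% rose and 20.7% fell. That balance turned with arrays centred on their medians, where 24.2% rose and 26.7% fell. Among the brighter 7162 genes, those at or above the median level, 49.0% rose and 25.7% fell, and 16 of the 18 members tested there rose. That cut left out Dhcr7, Stard4 and Nr1h3, which did not pass over all genes, and Mvd, Hsd17b7 and Tm7sf2, which rose. The median log2 change was 0.56 over the 24 genes and -0.01 over all genes. For 6 of the 24 genes the rise was at least 2-fold, against 4.13% of all genes. In the same 19 genes every day 1 array lay above every day 0 array, a separation seen in 31.4% of all genes. The LXR target Abca1 had the largest change of the set, followed by the sterol sensor Insig1 and the demethylating enzyme Msmo1. As these are whole rings, more cells of a type and more RNA per cell cannot be told apart.

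**Figure D1:**
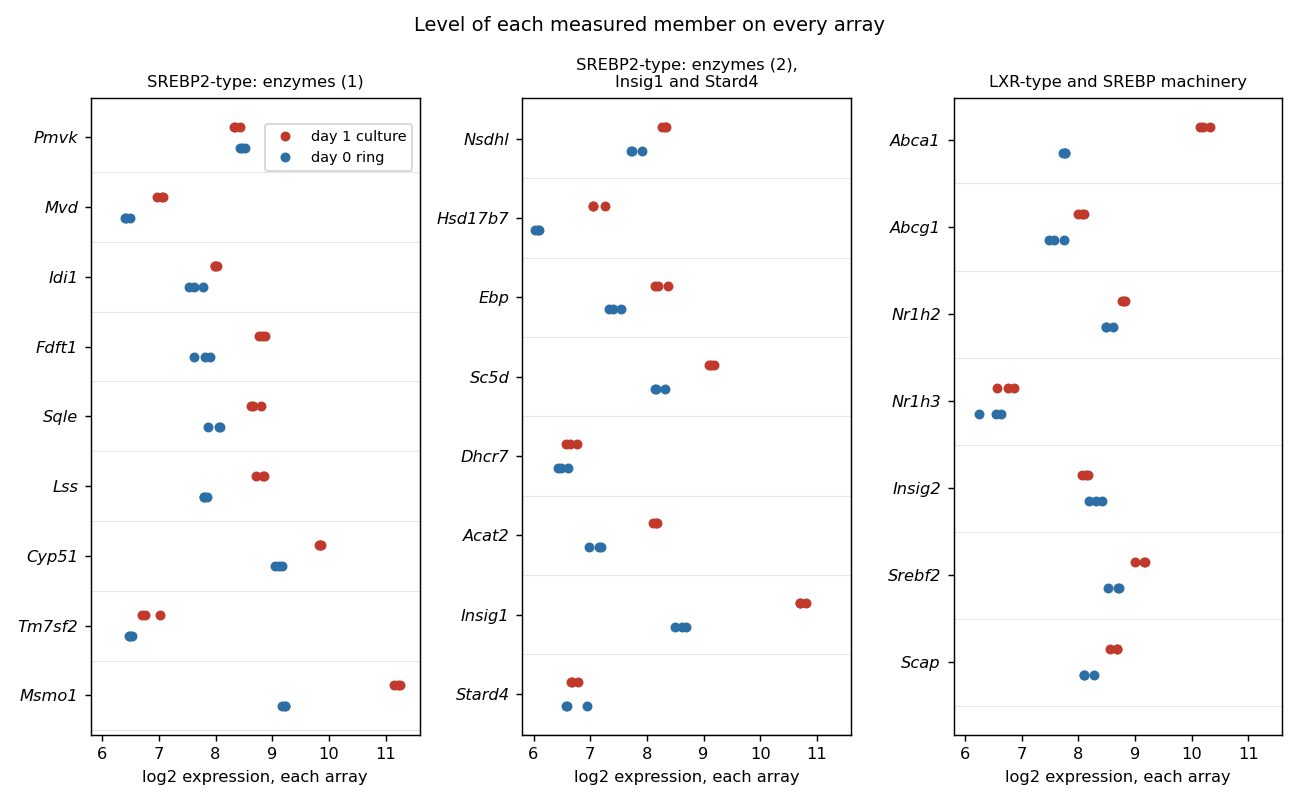
Log2 expression (horizontal axis) of the 24 measured genes, with each point 1 array, day 1 cultures above day 0 rings in each row (n = 3 per group). The day 1 points of Msmo1 (11.15 to 11.26), Insig1 (10.70 to 10.81) and Abca1 (10.14 to 10.33) lie farthest right of their day 0 points.

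The first steps of the pathway were raised unevenly. Acat2, the cytosolic thiolase that joins acetyl units, stood at 8.17, 8.10 and 8.17 in the day 1 cultures, against 7.19, 7.15 and 6.98 in the day 0 rings. The groups did not overlap, and the rise was 1.04 ± 0.07 (adjusted p = 1.17e-05). Mvd, which decarboxylates mevalonate diphosphate to give isopentenyl diphosphate, read 7.06, 7.07 and 6.98 on day 1, against 6.42, 6.49 and 6.40 on day 0, a rise of 0.60 ± 0.06 (adjusted p = 9.25e-05). Idi1, the isomerase that follows it, rose by 0.35 ± 0.08 (adjusted p = 0.00537), with 7.99 to 8.02 on day 1 and 7.53 to 7.78 on day 0. Pmvk, the kinase acting just before Mvd, was the exception among these enzymes. Its values were 8.44, 8.33 and 8.34 on day 1, against 8.47, 8.43 and 8.52 on day 0. These overlapped, with a change of -0.10 ± 0.06 (adjusted p = 0.210, 95% interval -0.25 to 0.04). Under quantile normalization Pmvk passed the threshold downward (-0.23, adjusted p = 0.0132), and likewise with arrays centred on their medians (-0.17, adjusted p = 0.0476).

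All 3 enzymes that build lanosterol from farnesyl units rose. Fdft1, squalene synthase, was at 8.88, 8.82 and 8.77 on day 1, against 7.81, 7.62 and 7.90 on day 0, a 2.06-fold rise (1.04 ± 0.08, adjusted p = 2.66e-05). Sqle, the squalene epoxidase that is a rate-limiting oxygen-dependent step, was at 8.81, 8.62 and 8.66 on day 1, against 8.07, 7.87 and 8.07 on day 0, a rise of 0.69 ± 0.08 (adjusted p = 2.45e-04). Lss, the cyclase that closes the sterol rings, was at 8.84, 8.71 and 8.86 on day 1, against 7.79, 7.84 and 7.79 on day 0, a rise of 0.99 ± 0.07 (adjusted p = 8.58e-06). None of the 3 genes had a day 1 array within the day 0 range.

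Of the 8 measured enzymes that convert lanosterol to cholesterol, 7 rose. Msmo1, the methylsterol oxidase that starts removal of the C4 methyl groups, led them with 11.21, 11.26 and 11.15 on day 1, against 9.22, 9.17 and 9.23 on day 0. That is a 3.99-fold rise (2.00 ± 0.06, adjusted p = 1.80e-07), which ranked 113 of 14324 genes by log2 change. The other enzymes of the same demethylation also rose, Nsdhl by 0.52 ± 0.07 (adjusted p = 5.32e-04) and Hsd17b7, the ketosteroid reductase, by 1.05 ± 0.07 (adjusted p = 1.27e-05). Hsd17b7 read 7.26, 7.06 and 7.05 on day 1 and 6.03, 6.08 and 6.10 on day 0, with no overlap.

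Cyp51, the P450 that demethylates lanosterol, rose by 0.73 ± 0.06 (adjusted p = 3.04e-05). Its 3 day 1 values lay within 9.82 to 9.85 and its day 0 values within 9.04 to 9.16. Ebp, the sterol isomerase, rose by 0.81 ± 0.09 (adjusted p = 1.36e-04), and Sc5d, the desaturase after it, rose by 0.92 ± 0.07 (adjusted p = 1.79e-05). Tm7sf2, a sterol reductase of the step after Cyp51, had the smallest rise among the enzymes that passed (0.32 ± 0.09, adjusted p = 0.0193), and its day 1 value was 7.02 in replicate 1 against 6.75 and 6.69 in the other replicates. The call on Tm7sf2 was lost without day 0 replicate 1 (adjusted p = 0.0523) or day 0 replicate 3 (adjusted p = 0.0528). Dhcr7, the reductase that completes cholesterol, was at 6.77, 6.58 and 6.63 on day 1, against 6.61, 6.43 and 6.48 on day 0. These overlapped, and the change of 0.15 ± 0.08 did not pass (adjusted p = 0.147, 95% interval -0.03 to 0.33). It was 0.099 without day 1 replicate 1 (adjusted p = 0.363) and 0.088 with median centring (adjusted p = 0.319).

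**Figure D2:**
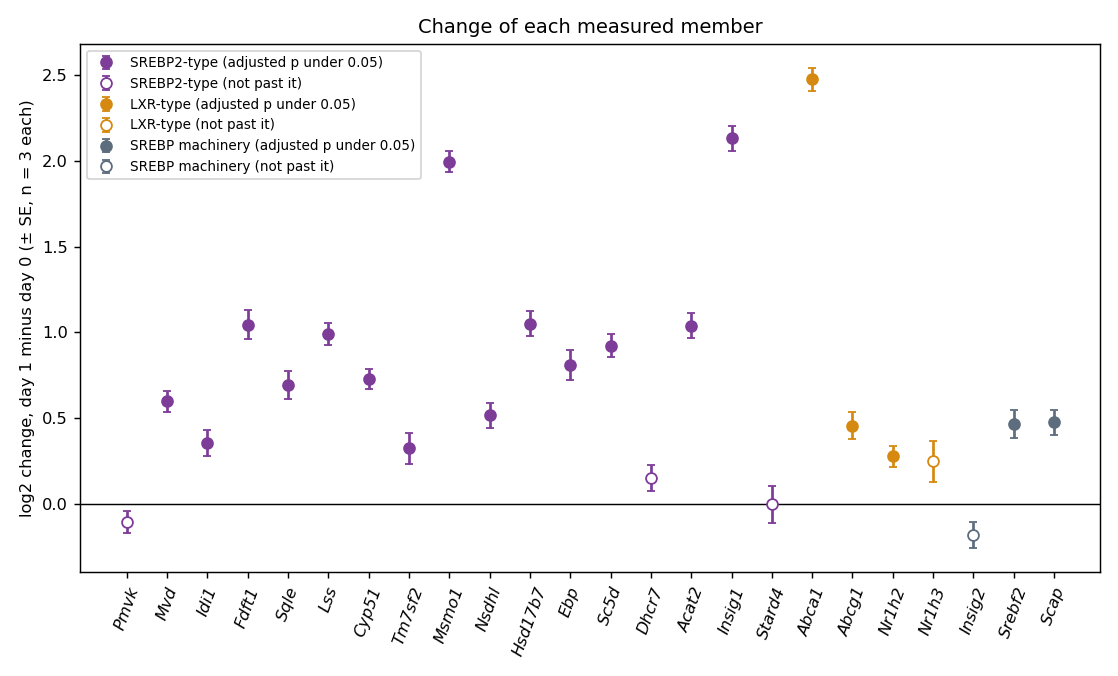
Log2 change from limma (day 1 minus day 0, vertical axis, bars ± SE, n = 3 per group) of each measured gene, with filled points past an adjusted p of 0.05. Abca1 (2.48), Insig1 (2.13) and Msmo1 (2.00) stand above the rest. The 5 open points (Pmvk, Dhcr7, Stard4, Nr1h3 and Insig2) run from -0.18 (Insig2) to 0.25 (Nr1h3).

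Both Insig genes encode endoplasmic reticulum proteins that retain Scap, and their day 1 values lay on opposite sides of day 0. Insig1, itself a classical SREBP target, was at 10.70, 10.81 and 10.70 on day 1, against 8.62, 8.69 and 8.50 on day 0, a 4.38-fold rise (2.13 ± 0.07, adjusted p = 2.95e-07). A second row of the array for Insig1 gave a change of 2.20. Insig2, which is not driven by SREBP in the same way, was at 8.14, 8.17 and 8.06 on day 1, against 8.31, 8.42 and 8.18 on day 0. The groups did not overlap, which with day 1 lower held in 25.5% of all genes, and the change of -0.18 ± 0.08 missed the threshold (adjusted p = 0.0905). Insig2 did pass it, downward, under quantile normalization (-0.31, adjusted p = 0.0110), median centring, a filter at the median level, an intensity trend or without day 0 replicate 3. The difference Insig1 minus Insig2 within an array was 2.61 ± 0.05 on day 1 and 0.30 ± 0.03 on day 0 (SD, n = 3 each). An exact two-sided permutation test gave p = 0.1, which is the smallest that 3 against 3 arrays allow (adjusted p = 0.1 over the 2 gene pairs compared). Both pairs, this one and Abca1 with Abcg1, were chosen after their values were seen.

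Scap, the escort protein, was at 8.68, 8.56 and 8.67 on day 1, against 8.28, 8.10 and 8.10 on day 0, a rise of 0.48 ± 0.07 (adjusted p = 0.00106). Srebf2, the gene of SREBP2, was at 9.17, 9.004 and 9.16 on day 1, against 8.70, 8.52 and 8.72 on day 0, a rise of 0.47 ± 0.08 (adjusted p = 0.00189). Both rises were below the set's median, and neither gene's groups overlapped. Stard4, a cytosolic carrier of cholesterol, was at 6.68, 6.65 and 6.78 on day 1, against 6.59, 6.58 and 6.95 on day 0. Day 0 replicate 3 lay above all the other arrays, and the change was 0.00 ± 0.11 (adjusted p = 0.994, 95% interval -0.25 to 0.25).

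Abca1, the exporter that loads cholesterol and phospholipid onto apolipoprotein A-I, was at 10.20, 10.14 and 10.33 on day 1, against 7.76, 7.76 and 7.73 on day 0. Its 5.56-fold rise (2.48 ± 0.07, adjusted p = 1.24e-07) ranked 58 of 14324 genes. Abcg1, which exports cholesterol to high-density lipoprotein, was at 8.003, 8.06 and 8.11 on day 1, against 7.74, 7.57 and 7.49 on day 0, a 1.37-fold rise (0.46 ± 0.08, adjusted p = 0.00195). The difference Abca1 minus Abcg1 within an array was 2.17 ± 0.07 on day 1 and 0.15 ± 0.12 on day 0 (SD, n = 3 each; exact two-sided permutation p = 0.1, the smallest possible, adjusted p = 0.1 over the same 2 pairs).

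The receptors had the smallest changes of the LXR-type genes. Nr1h2, which encodes LXR beta, was at 8.83, 8.80 and 8.77 on day 1, against 8.49, 8.61 and 8.48 on day 0. Its rise of 0.28 ± 0.06 (adjusted p = 0.00684) was lost under quantile normalization (0.16, adjusted p = 0.0719). Nr1h3, which encodes LXR alpha, was at 6.75, 6.86 and 6.56 on day 1, against 6.55, 6.64 and 6.24 on day 0. These groups overlapped, and the change of 0.25 ± 0.12 did not pass (adjusted p = 0.128, 95% interval -0.03 to 0.53). Without day 0 replicate 3 the change was 0.13 (adjusted p = 0.351).

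Set side by side, 14 of 17 SREBP2-type genes rose with a median log2 change of 0.73, and 3 of 4 LXR-type genes rose with a median of 0.37. By limma 0 genes of either class fell, also at an unadjusted p under 0.05. The LXR-type median rests on 4 genes that ranged from 0.25 (Nr1h3) to 2.48 (Abca1), and the SREBP2-type genes ranged from -0.10 (Pmvk) to 2.13 (Insig1). Whether the classes differ was not tested. Taken against their own day 0 means, the SREBP2-type genes had a median shift of 0.80, 0.72 and 0.71 in the 3 day 1 arrays and of 0.02, -0.07 and -0.01 in the 3 day 0 arrays. The LXR-type genes shifted by 0.35, 0.42 and 0.38 in the day 1 arrays and by 0.04, 0.05 and -0.08 in the day 0 arrays. The day 0 shifts lie around 0 by construction, and only their scatter can be read. Among SREBP2-type genes, day 1 replicate 1 was the lowest day 1 array for 0 of the 17 genes, and day 0 replicate 2 was the lowest day 0 array for 11 of the 17. The same counts were not taken over all genes, so these cannot be read as a trait of the SREBP2-type genes.

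Promoters are shown for the 3 SREBP2-type genes with the largest changes, and for Insig2 beside Insig1. The sequences are from RefSeq on build GRCr8 and run 5′ to 3′ over 250 bases before and 50 bases after the annotated start. Of the 24 measured genes 19 had such an entry. Capitals mark CCAAT on either strand, the box bound by NF-Y (a partner of SREBP at many sterol genes). Their positions are chr16:29746863-29747162, plus strand for Msmo1, chr13:84722705-84723004, minus strand for Hsd17b7, chr4:8057720-8058019, minus strand for Insig1 and chr13:35040049-35040348, minus strand for Insig2.
Msmo1: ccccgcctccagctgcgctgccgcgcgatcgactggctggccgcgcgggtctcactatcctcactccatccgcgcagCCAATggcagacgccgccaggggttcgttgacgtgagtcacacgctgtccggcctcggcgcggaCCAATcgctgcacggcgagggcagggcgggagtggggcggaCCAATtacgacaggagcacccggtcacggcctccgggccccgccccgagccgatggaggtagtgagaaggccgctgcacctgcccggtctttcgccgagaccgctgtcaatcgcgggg
Hsd17b7: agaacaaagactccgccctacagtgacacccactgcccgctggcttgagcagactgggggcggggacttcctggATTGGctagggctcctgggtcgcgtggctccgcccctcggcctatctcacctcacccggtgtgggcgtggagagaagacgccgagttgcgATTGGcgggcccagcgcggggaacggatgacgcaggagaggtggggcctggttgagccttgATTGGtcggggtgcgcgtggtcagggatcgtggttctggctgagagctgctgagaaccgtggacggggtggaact
Insig1: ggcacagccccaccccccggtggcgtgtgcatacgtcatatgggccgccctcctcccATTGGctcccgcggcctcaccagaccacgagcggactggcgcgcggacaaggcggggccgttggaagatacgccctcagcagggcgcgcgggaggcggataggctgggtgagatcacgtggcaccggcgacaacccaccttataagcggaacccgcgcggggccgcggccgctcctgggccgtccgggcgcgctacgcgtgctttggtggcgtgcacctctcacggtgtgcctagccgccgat
Insig2: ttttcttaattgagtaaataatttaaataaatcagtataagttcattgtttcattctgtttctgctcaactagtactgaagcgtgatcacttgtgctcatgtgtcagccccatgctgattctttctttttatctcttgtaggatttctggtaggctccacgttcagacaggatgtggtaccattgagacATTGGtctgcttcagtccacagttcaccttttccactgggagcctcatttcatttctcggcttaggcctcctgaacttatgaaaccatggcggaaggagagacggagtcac

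CCAAT was present in 10 of the 13 SREBP2-type promoters, against 38.3% of 11825 promoters of tested genes, and in 0 of 3 LXR-type promoters. Msmo1 and Hsd17b7 each held it 3 times, Insig1 and Insig2 once each. The Sp1 box GGGCGG, on either strand, was present in 11 of the 13 SREBP2-type promoters, against 50.2% of the promoters of tested genes. No Sp1 match overlapped a CCAAT match. A sterol element written as TCACNCCAC, on either strand, was in 0 of the 13 SREBP2-type promoters and in 1.09% of those of tested genes, which says only that these letters were not in the window. A match is a run of letters, and binding was not measured. The windows rest on annotated starts, and whether the aorta uses these starts, that of Insig2 included, was not tested.

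Genes around the pathway were followed through further lists, and their counts can be read against the 27.6% of all genes that rose and the 20.7% that fell. In uptake and intracellular transport 10 of 15 measured genes rose and 4 fell (median 0.49). Npc1, which moves cholesterol out of lysosomes, was at 9.97, 9.89 and 9.99 on day 1, against 8.06, 7.92 and 8.07 on day 0, a 3.82-fold rise (1.93 ± 0.07, adjusted p = 3.36e-07). Olr1, a scavenger receptor for oxidized lipoprotein, rose by 1.74 ± 0.13 (adjusted p = 1.75e-05). Vldlr, the very low density lipoprotein receptor, fell by 1.04 ± 0.06 (adjusted p = 5.16e-06).

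Among 5 genes of cholesteryl ester storage 3 rose and 1 fell (median 0.84). Plin2, which coats lipid droplets, was at 10.30, 10.19 and 10.16 on day 1, against 8.06, 8.21 and 7.94 on day 0, a 4.43-fold rise (2.15 ± 0.08, adjusted p = 5.22e-07). Nceh1, a hydrolase of cholesteryl esters, rose 4.28-fold (2.10 ± 0.06, adjusted p = 2.09e-07). Soat1, which esterifies cholesterol, rose by 0.84 ± 0.08 (adjusted p = 4.99e-05). Soat2, a second esterifying enzyme, did not pass (-0.08 ± 0.07, adjusted p = 0.350). Lipe, the hormone-sensitive lipase of fat cells, which also splits cholesteryl esters, fell by 0.49 ± 0.08 (adjusted p = 0.00110).

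Oxysterol enzymes, whose products include LXR ligands, included 3 of 6 that rose and 0 that fell, with 1 lower at an unadjusted p under 0.05 (median 0.24). Hsd3b7, of bile acid and oxysterol metabolism, rose by 1.28 ± 0.10 (adjusted p = 2.25e-05). Ch25h, a cholesterol hydroxylase of activated immune cells, rose by 0.74 ± 0.15 (adjusted p = 0.00377), with widely spread day 1 values of 6.38, 6.69 and 7.02 against 6.01, 5.86 and 5.999 on day 0. Cyp27a1, a mitochondrial sterol hydroxylase, rose by 0.53 ± 0.13 (adjusted p = 0.00890).

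Among 12 further LXR-type genes 6 rose and 3 fell, with 4 lower at an unadjusted p under 0.05 (median 0.18). The number called lower was 4 with median centring and 2 with quantile normalization. Apoe, an apolipoprotein that accepts exported cholesterol, was at 11.81, 11.73 and 11.76 on day 1, against 9.94, 10.06 and 9.97 on day 0, a rise of 1.78 ± 0.06 (adjusted p = 3.51e-07). Mylip, a ubiquitin ligase for lipoprotein receptors, rose by 0.89 ± 0.09 (adjusted p = 8.90e-05). Lpl, lipoprotein lipase, fell by 1.51 ± 0.11 (adjusted p = 1.29e-05). The list also held receptor genes of the RXR family, of which Rxra rose (0.55 ± 0.07, adjusted p = 3.50e-04). Rxrb (-0.34 ± 0.07, adjusted p = 0.00388) and Rxrg (-0.40 ± 0.14, adjusted p = 0.0472) fell. Apart from these receptors, Lpl was the only gene of the list that fell past the threshold. Apoc1 changed by -0.25 ± 0.09 and missed it (limma, unadjusted p = 0.0307, adjusted p = 0.0613).

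In the branch that leads from the same precursors to prenyl chains, 3 of 7 genes rose and 0 fell, with 1 lower at an unadjusted p under 0.05 (median 0.13). That balance depended on the processing, as 2 rose and 2 fell with quantile normalization and with median centring. The filter at the median and the fit without day 0 replicate 3 also called 2 lower, and the filter on the lowest 25% called 1. Dhdds, of dolichol synthesis, rose by 0.46 ± 0.06 (adjusted p = 2.80e-04), and Ggps1, which makes geranylgeranyl diphosphate, by 0.39 ± 0.08 (adjusted p = 0.00452). Fnta, a prenyltransferase subunit, rose by 0.23 ± 0.06 (adjusted p = 0.0171), a call lost under quantile normalization, with median centring and without day 1 replicate 2 or day 0 replicate 1.

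Of 7 genes for SREBP processing and sterol-regulated protein turnover 3 rose and 1 fell (median 0.00). Erlin1, a membrane protein that takes part in sterol control and degradation in the endoplasmic reticulum, rose by 1.12 ± 0.07 (adjusted p = 5.66e-06). Pgrmc1, a heme-binding partner of P450 enzymes, rose by 0.51 ± 0.06 (adjusted p = 2.86e-04). The proteases that release SREBP differed. Mbtps2, the site-2 protease, rose by 0.35 ± 0.08 (adjusted p = 0.00542), and Mbtps1, the site-1 protease, fell by 0.20 ± 0.06 (adjusted p = 0.0235). The Mbtps1 call was lost when any of 4 arrays was left out (highest adjusted p = 0.0710). Of 2 other measured genes listed as SREBP2-type, Acss2, an acetyl-CoA synthetase, fell by 0.25 ± 0.07 (adjusted p = 0.0194), a call lost when any of 3 arrays was left out (highest adjusted p = 0.0704). The other, Tmem97, was higher on day 1 by 0.20 ± 0.08 but did not pass (limma, unadjusted p = 0.0347, adjusted p = 0.0680). Tmem97 did pass, upward, with either filter on dim genes, with an intensity trend or without day 0 replicate 1.

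Genes listed under fatty acid synthesis, many of them controlled by SREBP1, went both ways, with 6 of 14 rising and 7 falling (median -0.02). Of these, Me1 passed narrowly (0.18 ± 0.06, adjusted p = 0.04945). The number rising was 4 with quantile normalization and 5 with median centring, each with 7 falling. Scd was counted both here and among the further LXR-type genes. Aacs, an acetoacetyl-CoA synthetase that feeds lipid synthesis from ketone bodies, rose by 1.22 ± 0.08 (adjusted p = 6.73e-06). Thrsp, a lipogenic factor abundant in fat and liver, fell to 6.24, 6.50 and 6.36 on day 1, against 8.20, 8.40 and 8.14 on day 0 (-1.88 ± 0.10, adjusted p = 2.24e-06). Fads2, a desaturase of long-chain fatty acids, fell by 1.30 ± 0.07 (adjusted p = 2.94e-06).

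**Figure D3:**
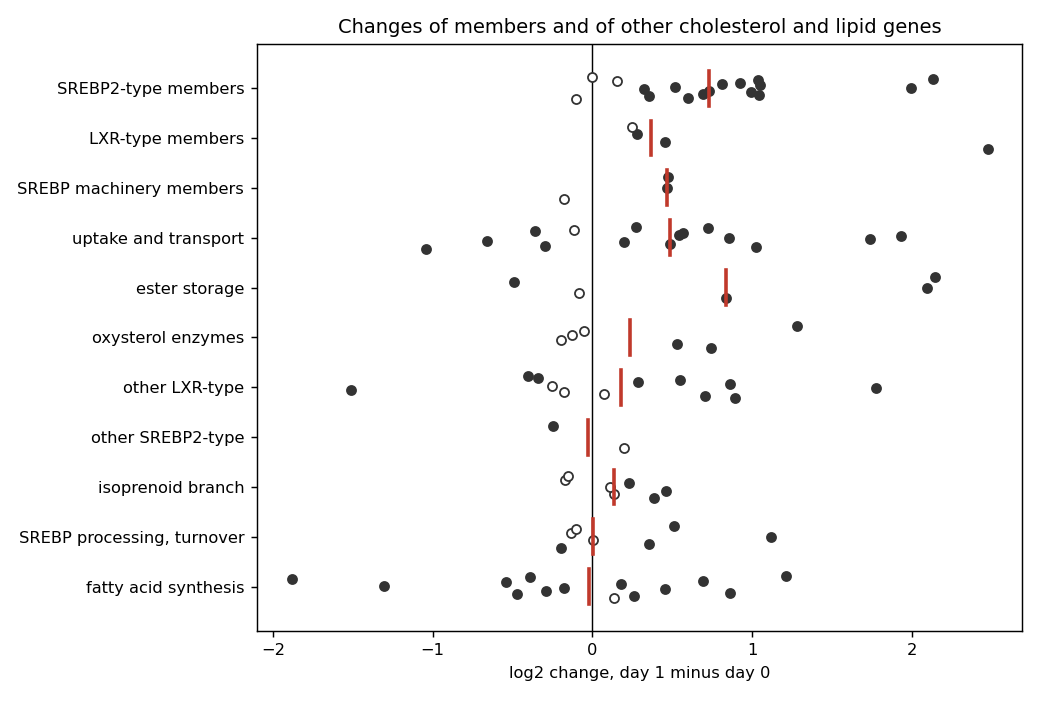
Log2 change (day 1 minus day 0, horizontal axis) of each gene by list, with each point 1 gene, filled where the adjusted p was under 0.05, and a red bar at each list's median. Among SREBP2-type genes 14 of 17 points are filled on the right of 0, and among fatty acid synthesis genes 6 of 14 are filled on the right and 7 on the left.

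Markers of the cell types that a ring can hold were counted in the same way, against the 27.6% of all genes that rose and the 20.7% that fell. All 9 measured smooth muscle markers fell (median -2.82), with the mean log2 level of the list at 8.29 to 8.43 on day 1 and 11.38 to 11.47 on day 0. Cnn1, calponin, fell by 5.73 ± 0.07. Of 14 macrophage markers 5 rose, 3 fell and 6 did not pass (median 0.12), shares of 35.7% and 21.4% that lie near those of all genes, with list means of 8.08 to 8.28 on day 1 and 7.96 to 8.04 on day 0. Cd68 (1.70 ± 0.06) and Cd14 (1.61 ± 0.07) rose and Lyve1 (-2.05 ± 0.08) fell, while Mrc1, Fcgr1a, Aif1, C1qa, C1qb and C1qc did not pass. Macrophages are rich in Abca1, Abcg1, Apoe, Npc1, Nceh1 and Plin2, and the part of these markers in the changes of those genes was not tested.

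Of 8 white adipocyte markers 6 fell and 0 rose, also at an unadjusted p under 0.05 (median -0.74), with list means of 5.41 to 5.66 on day 1 and 6.24 to 6.39 on day 0. Lep and Pparg did not pass. Aqp7 fell by 2.69 ± 0.17, Adipoq by 1.08 ± 0.11 and Fabp4 by 0.83 ± 0.07. The brown adipocyte gene Ucp1 fell by 3.13 ± 0.21, and 0 of the other 2 measured markers of that list passed (Ppargc1a unadjusted p = 0.0264, Elovl3 unadjusted p = 0.891). Thrsp, Lpl, Lipe and Fads2 fell alongside these markers, and the part of fat cells in that was not tested. Of 7 endothelial markers 5 rose and 2 fell (median 0.34, list means 8.09 to 8.20 on day 1 and 7.82 to 8.01 on day 0). Of 7 fibroblast markers 3 rose and 3 fell (median -0.13, list means 11.11 to 11.21 on day 1 and 11.36 to 11.47 on day 0).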

How the data were processed

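The deposited table holds log2 values for 27342 rows and 6 arrays, per the labels made from 200 ng of total RNA with an Affymetrix whole-transcript sense protocol. Their range (1.32 to 14.16) is the evidence for the log2 scale. The submitters' processing notes name limma; the sources used here do not give background correction, normalization or build. Array medians lay between 5.87 and 5.95, and no step was added to change them in the main analysis. Rows with exactly 1 annotated symbol (15097) were updated through gene ID against GRCr8, and the row with the highest mean was kept per gene. Only Insig1 among the members had a further row. The test was limma 3.58.1 (R 4.3.3; lmFit, eBayes, two-sided, no block or filter). The fit was tested on simulated data. Since pools may share animals, p-values reflect only the scatter among pools. Python 3.11.15 with scipy 1.17.1 gave exact tests, motif matches and figures.

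Members, lists and tests were chosen with earlier results of these data known. Named were all measured members and, of each further list, the 3 largest changes past the threshold and the largest against the majority, with up to 3 of each marker list. Further genes of some lists were named beside these. Recomputed were the counts over all genes and of each member and further pathway list, and the medians of the member lists. So were the changes of the members and of the genes named from the further lists by the rule above. The alternatives were median centring, quantile normalization, fits without dim genes (the lowest 25% or those under the median) and fits with other rows per gene. Others used all rows as features, an intensity trend or a replicate block, or left out each array in turn. Marker lists, gene-pair differences, shifts per array and promoter matches were not recomputed. Same-numbered arrays were not paired by origin in the labels.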

Additional observations from a re-analysis of the deposited data

How the results depend on the processing

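Of the 19 members that rose, 15 kept the call under all 15 alternatives. Mvd and Hsd17b7 kept it under the 14 in which they were tested, as the filter at the median removed them and Tm7sf2, so that 11 SREBP2-type genes rose there. Tm7sf2 and Nr1h2 lost it as given above. Quantile normalization, median centring and the filter at the median gave SREBP2-type medians of 0.61, 0.66 and 0.87. LXR-type medians were 0.27 with quantile normalization and 0.46 with that filter, and the SREBP machinery median was 0.35 with quantile normalization. The filter at the median also took out Dhcr7, Stard4 and Nr1h3, which had not passed, so these 2 classes have fewer genes in its medians. A count of 1 SREBP2-type gene lower (Pmvk) arose with quantile normalization and with median centring. A count of 1 SREBP machinery gene lower (Insig2) arose with quantile normalization, median centring, the filter at the median and an intensity trend, and 0 to 1 when an array was left out. Stard4 ranged from -0.066 to 0.12 when an array was left out. Over all genes 3947 were called higher and 2968 lower, 3509 and 1844 with the filter at the median, where fewer genes were tested, 3463 and 3823 with median centring, and 5771 and 4483 with every row as a feature. With the replicate block 3815 genes were called higher and 2871 lower. Deviations of same-numbered arrays correlated at 0.01, 0.02 and 0.04. Day 1 replicate 1 correlated best with another number (0.04), and day 1 replicates 2 and 3 with their own. With 3 arrays per group, such values cannot tell whether the numbers pair the samples. The block called Nr1h3 (adjusted p = 0.0243) and changed no other member's call. With 3 arrays per group and no probe-level background, small changes of dim genes are not resolved.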

Other observations

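The other 12 measured genes of the uptake and intracellular transport list, beside Npc1, Olr1 and Vldlr, went both ways. Among receptors and their partners, Lrp1, a large endocytic receptor, rose by 1.02 ± 0.06 (limma adjusted p = 6.89e-06) and Scarb1, a receptor for high-density lipoprotein, by 0.49 ± 0.11 (adjusted p = 0.00586). Lrpap1, a chaperone of Lrp1, fell by 0.30 ± 0.07 (adjusted p = 0.00666), and Cd36, a scavenger receptor of fat cells and macrophages, fell by 0.66 ± 0.12 (adjusted p = 0.00209). Among lysosomal and endosomal genes, Lipa, the lysosomal acid lipase, was at 9.24, 9.18 and 9.20 on day 1, against 8.36, 8.35 and 8.33 on day 0 (0.86 ± 0.06, adjusted p = 8.17e-06). Npc2, which hands cholesterol to Npc1, rose by 0.54 ± 0.06 (adjusted p = 1.35e-04), Stard3, a carrier on late endosomes, by 0.72 ± 0.07 (adjusted p = 5.67e-05), and Scarb2, a lysosomal membrane protein, by 0.20 ± 0.06 (adjusted p = 0.0183). Vps4b, of endosomal sorting, rose by 0.27 ± 0.06 (adjusted p = 0.00589). Among carriers between membranes, Gramd1a rose by 0.56 ± 0.06 (adjusted p = 1.24e-04), Osbp fell by 0.36 ± 0.06 (adjusted p = 0.00123), and Osbpl2 did not pass (-0.11 ± 0.06, adjusted p = 0.171).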
